A study of Mus musculus with 12 samples.

Results

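Expression of the adrenomedullin and calcitonin family was followed in isolated mouse alveolar type 2 epithelial cells (AEC2), the cells that make lung surfactant. The genes described are 7 of the 16080 measured: the peptide genes Adm, Adm2 and Calca, the receptor gene Calcrl, and Ramp1, Ramp2 and Ramp3, which encode receptor activity-modifying proteins (RAMPs). They were chosen from a list of family symbols matched to the Ensembl identifiers, with their levels in the 3 genotype groups already known. Their levels and differences below are therefore a description and carry no test. All 7 were measured, and no filter on low values was applied.

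The peptides of this family are cut from longer precursors and carry an amide at the carboxyl end, which the enzyme encoded by Pam adds. Apart from calcitonin, they act through the calcitonin receptor-like receptor, the product of Calcrl. This receptor needs a RAMP to reach the cell surface and to bind its ligand. With the product of Ramp1 it binds calcitonin gene-related peptide (CGRP) best, and with the products of Ramp2 or Ramp3 it forms adrenomedullin receptors. The receptors couple mainly to the stimulatory G protein and raise cyclic AMP. In the lung, adrenomedullin signalling is best known from endothelial cells, and CGRP from neuroendocrine cells and sensory nerves.

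The cells came from female Bl6 mice at postnatal day 56, in 3 groups of 4 libraries. The groups differ at the Sftpc locus, which encodes surfactant protein C (SP-C). WT has the wild-type gene, C185G expresses SP-C with a mutation of the BRICHOS domain, and C185Gneo is a hypomorphic control by the series' own description. Every group is listed with intraperitoneal tamoxifen at 200 mg per kg on 2 days and cell isolation on day 7. The promoter that drives recombination is not given in the sources used here, nor is it stated that the libraries of a group are separate animals, so the p-values below measure only the spread between these samples. Isolation used Dispase, adherence to plastic against mesenchymal cells, and bead depletion of CD45-positive cells. Groups follow the genotype field, since the sample titles use the name C185G for the libraries whose genotype is C185Gneo.

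Recovered library totals ran from 15659512 to 23444287 counts, and 1 count was worth 0.0428 to 0.0616 normalized CPM (counts scaled to a common library total). Sftpc was lowest in the group called hypomorphic, C185Gneo, at 895 ± 143 CPM (SD, n = 4), with 2833 ± 256 in C185G and 7467 ± 194 in WT. All 10 AEC2 markers on the list were measured, and none was at 0 in every library. Their summed level was 32372 to 37653 CPM in WT, against 28773 to 32571 in the C185Gneo libraries and 13719 to 16292 in C185G. Sftpc itself carries the difference between the control genotypes: without it, a sum added after the data were seen, the ranges were 25160 to 30199 CPM in WT, 28001 to 31492 in C185Gneo and, below both, 10659 to 13445 in C185G. All 10 were called lower in C185G than in WT, beside 27.8% of all measured genes. In C185Gneo against WT, Sftpc alone of the 10 was called, lower. A gene is called here at a Benjamini-Hochberg adjusted p under 0.05 in 1 limma fit of the 12 libraries, adjusted over all measured genes.

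In GRCm38, with the GENCODE mouse annotation, the 7 protein-coding genes lie on 5 chromosomes. Adm (ENSMUSG00000030790) spans chr7:110627661-110629820 on the plus strand, and Calca (ENSMUSG00000030669) spans chr7:114631478-114636357 on the minus strand. Adm2 (ENSMUSG00000054136) is at chr15:89322720-89324731 on the plus strand. Calcrl (ENSMUSG00000059588) is at chr2:84330626-84425411 on the minus strand, and Ramp1 (ENSMUSG00000034353) at chr1:91179822-91225196 on the plus strand. Chromosome 11 holds Ramp2 (ENSMUSG00000001240), at chr11:101246028-101259546, and Ramp3 (ENSMUSG00000041046), at chr11:6658521-6677475, both on the plus strand. Adm overlaps the antisense gene Gm28863, Ramp2 overlaps Vps25 on the same strand, and Ramp3 overlaps the pseudogene Gm11978 on the other strand. How reads were assigned there is not given in the sources used here, so the levels of these 3 genes are uncertain to that extent.

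RefSeq promoter windows (GRCm38.p6, from 250 bases before to 50 after the annotated start) matched 6 of the 7 genes. The 120 bases before the start are shown for Adm2, Calca and Ramp1, whose levels did not overlap between C185G and either control. For Calcrl, 28 bases around its motif match are shown. All are written 5′ to 3′ on the strand of the gene, and the capitals mark the match.
Adm2, chr15:89322600-89322719, plus strand: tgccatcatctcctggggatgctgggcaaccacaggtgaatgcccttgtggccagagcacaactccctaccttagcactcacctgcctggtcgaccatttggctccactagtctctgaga
Calca, chr7:114636358-114636477, minus strand: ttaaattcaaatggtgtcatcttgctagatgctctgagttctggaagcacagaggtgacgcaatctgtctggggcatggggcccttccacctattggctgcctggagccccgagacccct
Ramp1, chr1:91179702-91179821, plus strand: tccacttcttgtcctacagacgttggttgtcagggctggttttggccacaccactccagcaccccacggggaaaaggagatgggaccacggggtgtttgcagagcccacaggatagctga
Calcrl, chr2:84425324-84425351, minus strand: cggggcggggTGATGTAAcaggaagctg

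Each window was searched on both strands for 3 motifs, none of which contains another. The amino acid response element, searched as TGATGNAA, is a sequence at which ATF4 acts, and it was present in 3.97% of 32851 promoter windows. Of the 6 members with a window, Calcrl held it, as TGATGTAA, 75 bases upstream of its RefSeq start (chr2:84425334-84425341). The GENCODE gene extends 145 bases further upstream than that start, so the match lies inside the GENCODE gene. The cyclic AMP response element TGACGTCA (1.79% of windows) and the hypoxia response element core ACGTG (19.6%) had no match in the 6 windows. These are matches of letters in short windows, and binding was not measured.

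Adm2 had the widest separation between genotypes of the 7 genes. It encodes adrenomedullin 2, also called intermedin, which acts at all 3 pairings of the calcitonin receptor-like receptor with a RAMP. The 4 WT libraries held 0.858, 1.98, 1.17 and 1.17 CPM, which were 15 to 35 counts. The C185Gneo libraries held 1.8, 1.0, 0.535 and 1.22 CPM, from 9 to 42 counts. The C185G libraries held 22.3, 13.6, 17.8 and 21.3 CPM, from 291 to 433 counts. Every C185G library was above every control library, and the control genotypes overlapped. The log2 difference was 3.86 (SE 0.33) from WT, a 14.6-fold higher level, and 4.10 (SE 0.33) from C185Gneo, 17.2-fold. Both differences use the same C185G libraries and are not independent. Since bulk RNA was sequenced, a change in the number of expressing cells and a change in RNA per cell cannot be told apart, here or for the genes below.

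Calca was also higher in all C185G libraries. By alternative splicing it encodes calcitonin or CGRP-alpha, and a count per gene does not separate them. WT libraries held 2.46, 2.66, 2.9 and 2.59 CPM, and C185Gneo libraries held 3.51, 2.72, 4.05 and 3.48. In C185G the values were 9.53, 8.47, 8.01 and 10 CPM, each from at least 147 counts. The log2 difference was 1.75 (SE 0.14) from WT, or 3.37-fold, and 1.39 (SE 0.14) from C185Gneo, or 2.62-fold. C185Gneo lay 0.36 (SE 0.14) above WT on the same scale, with 1 of its libraries inside the WT range. Calcb, the paralog that encodes CGRP-beta, was at 1.5 ± 0.148 CPM in WT and 1.31 ± 0.799 in C185Gneo, with 2.06 ± 0.852 in C185G. It was not called in C185G against WT (limma adjusted p = 0.467). Calcb and Calca are similar in sequence, and how shared reads were split is not given in the sources used here.

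Calca is a marker of neuroendocrine cells in the lung, so their other markers were set beside it. Of 16 listed, 9 were measured, none at 0 in every library. Chga, Scg3, Snap25, Neurod1, Syt1 and Grp were among those not analysed here. In C185G against WT, 1 of the 9 was called higher, Uchl1, beside 27.3% of all measured genes. The 3 called lower, Syp, Scg5 and Insm1, were 33.3% of the 9, near the 27.8% of all genes. The summed level of the 9 was 15.9 to 19.3 CPM in WT and 15.7 to 20.1 in C185Gneo, with 108 to 122 in C185G. Without Uchl1, the 1 marker called higher, it was 10.2 to 13.5 CPM in WT and 10.4 to 14.6 in C185Gneo. In C185G it was then 6.98 to 12.1 CPM, and all 3 groups overlapped. The part of neuroendocrine cells in the Calca difference was not tested beyond these values.

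Adm, which encodes adrenomedullin, a vasodilator and known target of hypoxia-inducible factors, differed far less. WT libraries held 9.9, 14.7, 15.8 and 10.6 CPM, and C185Gneo libraries 8.13, 14.8, 11.3 and 10.8. C185G libraries held 14.3, 18.5, 13.8 and 19.6 CPM. The C185G range overlapped with both controls, although its mean was the highest. The log2 difference was 0.39 (SE 0.2) from WT and 0.57 (SE 0.2) from C185Gneo. With 1 library left out at a time, the difference from WT ran from 0.28 to 0.50.

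**Figure D1:**
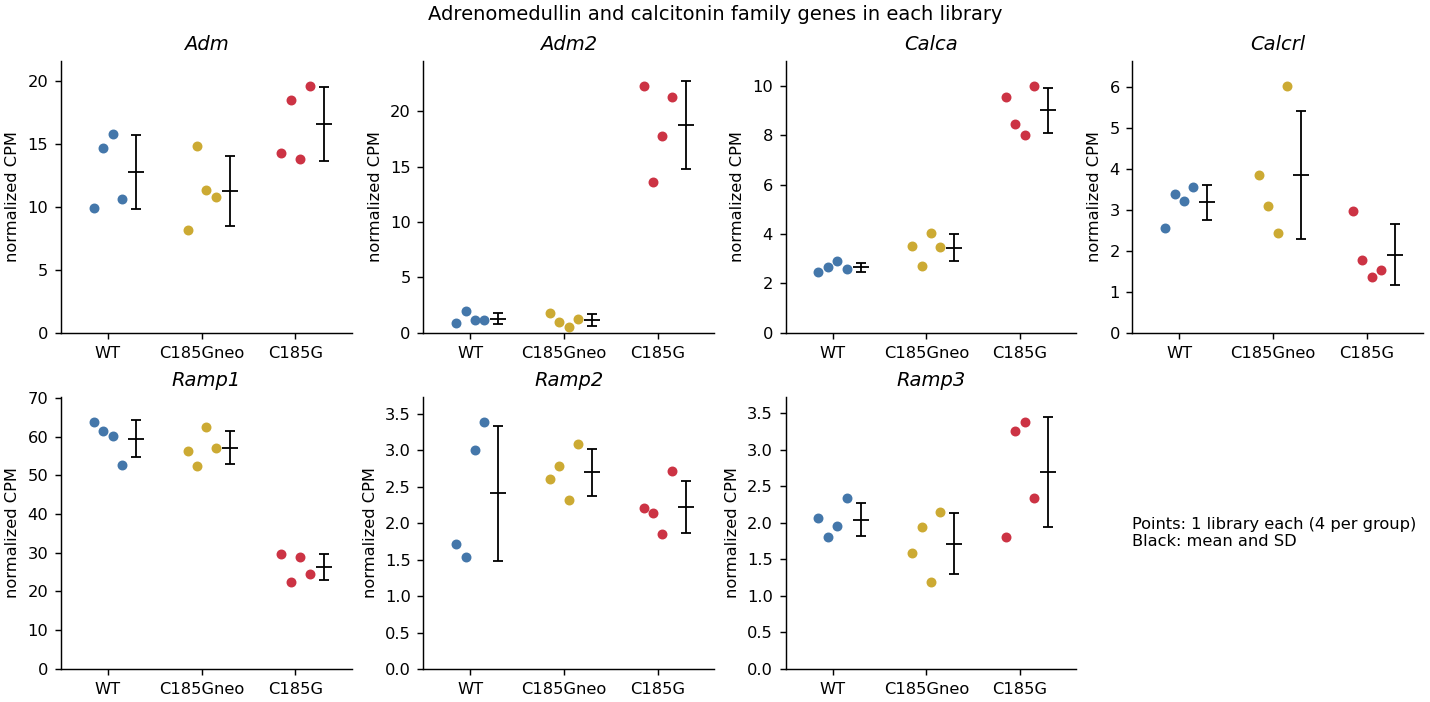
Normalized CPM of the 7 genes in each of the 12 libraries, by genotype on the x axis, with linear y axes that start at 0. Points are libraries and black marks are the mean and SD of 4. The C185G points stand above all control points for Adm2 and Calca, below all of them for Ramp1, and overlap with controls in the other 4 panels.

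Calcrl, the receptor gene shared by adrenomedullin, adrenomedullin 2 and CGRP, was measured from few reads, 25 to 104 counts per library. WT libraries held 2.57, 3.39, 3.23 and 3.57 CPM. C185Gneo libraries held 3.85, 3.11, 2.44 and 6.04 CPM, the last being the highest value of any library. C185G libraries held 2.99, 1.77, 1.36 and 1.54 CPM. All but 1 of the C185G libraries were below every control library, and C185G replicate 1 lay within the range of both controls. The log2 difference was -0.79 (SE 0.28) from WT and -0.99 (SE 0.28) from C185Gneo. Leaving out 1 library at a time moved these to between -1.02 and -0.65, and between -1.22 and -0.75.

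Calcrl and Ramp2 are well known from endothelial cells, whose markers were set beside them. Of 20 listed markers, 16 were measured, none at 0 in every library. Emcn, Gpihbp1, Aplnr and Sox17 were not analysed here. The limma fit called 10 of the 16 lower in C185G than in WT, beside 27.8% of all measured genes. It called 12 lower than in C185Gneo, beside 28.7%. In either comparison 0 of the 16 were called higher, beside 27.3% and 29.2% of all genes. At an unadjusted p under 0.05, 1 and 0 were higher, and limma with voom weights called 0 higher. Their median log2 difference was -0.62 and -0.71, respectively. Their summed level was 331 to 420 CPM in WT and 318 to 418 in C185Gneo, with 287 to 316 in C185G. Esam and Kdr had the highest levels of the 16, weigh most in this sum and were called in neither comparison. Esam was at 123 ± 11.3 CPM in WT and 141 ± 18 in C185G, and Kdr at 81.9 ± 15.5 and 69.8 ± 8.75. The sum therefore differs less than most of the single markers, and it was not taken without these genes. In C185Gneo and in WT, replicate 4 had both the highest Calcrl and the highest endothelial sum of its group. In C185G, by contrast, replicate 1 had the highest Calcrl, 2.99 CPM, and the lowest endothelial sum, 287 CPM. The part of endothelial RNA in the Calcrl difference was not tested.

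Among the RAMPs, Ramp1 had the highest level and the clearest separation. Its product makes the calcitonin receptor-like receptor a CGRP receptor. WT libraries held 63.8, 61.4, 60.2 and 52.6 CPM, and C185Gneo libraries 56.4, 52.3, 62.6 and 57.1. C185G libraries held 29.6, 22.4, 28.8 and 24.6 CPM, all below every control library. The log2 difference was -1.18 (SE 0.093) from WT and -1.12 (SE 0.093) from C185Gneo, while C185Gneo and WT differed by -0.06 (SE 0.093). The AEC2 marker sum without Sftpc, given above, had the same arrangement, with the control genotypes overlapping and C185G below both. So did the endothelial sum and the airway sum given below. The arrangement is common: libraries did not overlap for 48.7% of all genes in C185G against WT and 49.9% against C185Gneo, in either direction. The part of AEC2 or other cell types in the Ramp1 difference was not tested.

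Ramp2, whose product forms the main adrenomedullin receptor of endothelium, had no separation. WT libraries held 1.72, 1.53, 3.01 and 3.39 CPM, C185Gneo libraries 2.61, 2.78, 2.32 and 3.08, and C185G libraries 2.21, 2.14, 1.85 and 2.71. The WT libraries fell into a lower and a higher pair that enclosed all C185G values. The log2 difference of C185G was -0.04 (SE 0.24) from WT and -0.28 (SE 0.24) from C185Gneo. The sign of the first depends on the setting, ranging from -0.23 to 0.15 when 1 library is left out.

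Ramp3, whose product forms the other adrenomedullin receptor, varied within C185G. Its values were 1.8, 3.26, 3.38 and 2.34 CPM there, from 35 to 70 counts. WT libraries held 2.06, 1.81, 1.95 and 2.34 CPM, and C185Gneo libraries 1.58, 1.94, 1.19 and 2.15. C185G replicates 2 and 3 exceeded all control libraries, and replicates 1 and 4 did not. The log2 difference was 0.36 (SE 0.23) from WT and 0.63 (SE 0.23) from C185Gneo.

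**Figure D2:**
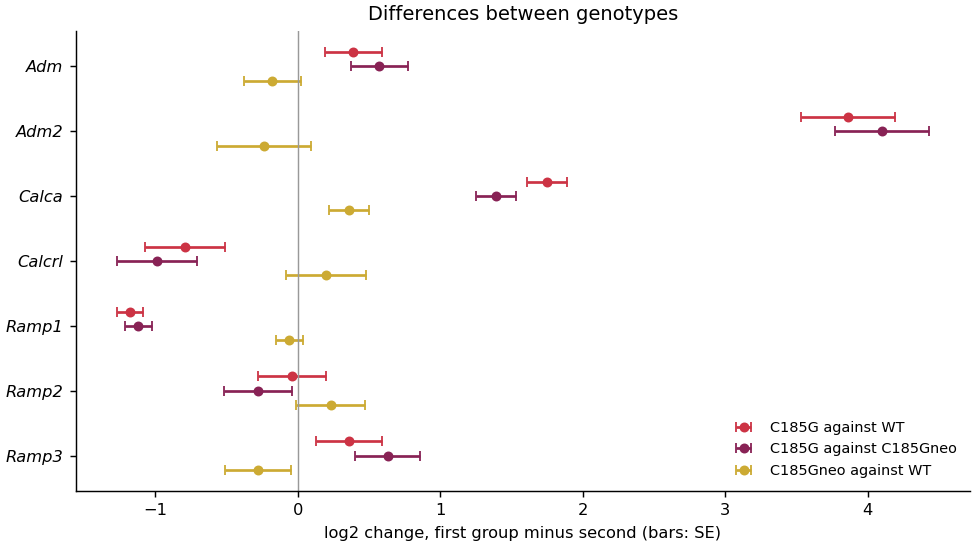
Log2 difference between groups for each gene (x axis, first group minus second), with bars for the SE from the limma fit of 12 libraries. Adm2 lies near 4 in both C185G comparisons, at 3.86 and 4.10, Ramp1 near -1.18 and -1.12, and differences between the control genotypes are within 0.36 of 0.

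In C185G against WT, 2 of the 7 genes were called higher and 2 lower, where 27.3% and 27.8% of all measured genes were called. The levels did not overlap for 3 of 7, against 48.7% of all genes. In C185G against C185Gneo, 4 were called higher and 2 lower, beside 29.2% and 28.7% of all genes, and 3 did not overlap, beside 49.9%. Between C185Gneo and WT, limma called 0 of 7 in either direction, beside 0.249% higher and 0.292% lower among all genes. At an unadjusted p under 0.05, 1 was higher and 0 lower there, and limma with voom weights called 0. None of the 7 was without overlap in that comparison, beside 6.86% of all genes. Because the genes were chosen with these contrasts known, nothing is read from these counts.

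Levels of different genes were compared per kilobase of exon. In WT, Ramp1 was highest at 19.7 ± 1.6 CPM per kilobase, followed by Adm at 7.86 ± 1.8 and Calca at 1.57 ± 0.109 (SD, n = 4 each). Below these came Ramp3 at 1.48, Adm2 at 0.998, Ramp2 at 0.73 and Calcrl at 0.654, each overlapping its neighbours in that order, and Ramp3 overlapping Calca. The order was the same in C185Gneo, from Ramp1 at 18.9 ± 1.39 to Calcrl at 0.791 ± 0.32. There Calca did not overlap Ramp3.

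In C185G the order differed: Adm2 came first at 14.4 ± 3.05 CPM per kilobase, then Adm at 10.2 ± 1.79 and Ramp1 at 8.71 ± 1.13. Adm2 overlapped Adm, and Adm overlapped Ramp1. Calca followed at 5.35 ± 0.554, Ramp3 at 1.95 ± 0.547, Ramp2 at 0.676 ± 0.108 and Calcrl at 0.392 ± 0.15, the last pair overlapping. The receptor transcript had the lowest level of the 7 in each genotype by this measure. With the length of the longest transcript in place of all exons, Ramp2 reads 1.63 in WT and passes Ramp3 at 1.53, with overlap, and Calcrl is still last.

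As shares of their own family, the peptides and RAMPs were composed differently in C185G. Adm2 made up 9.48 ± 2.35% of the summed per-kilobase level of the 3 peptide genes in WT, 9.23 ± 5.23% in C185Gneo and 47.9 ± 6.6% in C185G. Adm made up 75.1 ± 2.57%, 69.7 ± 8.29% and 34.3 ± 6.2%, while Calca took 15.4 ± 2.34%, 21.1 ± 4.95% and 17.9 ± 0.612%. Ramp1 made up 89.8 ± 2.46% of the 3 RAMP genes in WT, 90.1 ± 2.17% in C185Gneo and 76.7 ± 4.96% in C185G. The share of Ramp3 was 6.79 ± 1.12%, 5.98 ± 1.61% and 17.3 ± 4.97%, and that of Ramp2 was 3.39 ± 1.46%, 3.91 ± 0.556% and 6.03 ± 1.34%. Ramp1 was the largest RAMP share in all 12 libraries, with a lowest value of 71.1% in C185G. Shares depend on the length used. With the longest transcript, Ramp2 was 5.74 ± 2.43% and Ramp3 5.35 ± 0.842% in WT, in reversed order. In C185G, Adm2 was then 40.6 ± 6%, Adm 33.8 ± 5.71% and Calca 25.6 ± 0.663%.

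**Figure D3:**
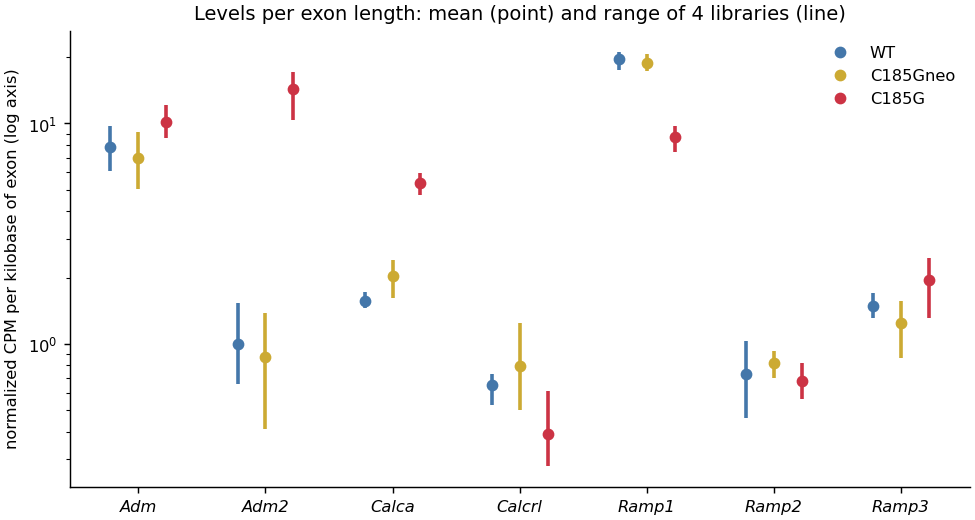
Normalized CPM per kilobase of exon on a log axis, for each gene and genotype. Points are means and lines span the lowest to the highest of 4 libraries. In WT and C185Gneo the Ramp1 point is highest at 19.7 and 18.9, and in C185G the Adm2 point is highest at 14.4.

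The rest of the pathway was read from lists of genes chosen by function. Together they hold 115 measured genes, of which 42 (36.5%) were called higher and 31 (27.0%) lower in C185G against WT. Against C185Gneo, 46 (40.0%) were called higher and 35 (30.4%) lower. For all measured genes the shares were those given above, and the median log2 difference of all genes was within 0.004 of 0 in each comparison.

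Among genes for peptide processing and amidation, 9 of 11 listed were measured, with 4 called higher and 1 lower in C185G against WT and a median log2 difference of 0.19. Pam, whose product amidates adrenomedullin and CGRP, was at 93.6 to 112 CPM in WT and 135 to 149 in C185G, with no overlap. It rose from 105 ± 7.84 to 144 ± 6.43 CPM (log2 0.46, SE 0.064, limma adjusted p = 3.64e-05). Pcsk5, a proprotein convertase, rose from 7.21 ± 1.45 to 16.1 ± 4.78 CPM (log2 1.13, SE 0.19, limma adjusted p = 0.000226). The convertases Pcsk6 (log2 0.28) and Pcsk7 (log2 0.19) were called by small margins. The call of Pcsk6 is lost without WT replicate 1, 2 or 3 or C185G replicate 2 or 4 (limma adjusted p 0.0564 to 0.118). That of Pcsk7 is lost without WT replicate 1 or 2 or C185G replicate 4 (limma adjusted p 0.0619 to 0.0732).

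Scg5, which encodes the neuroendocrine chaperone 7B2 of a convertase, was the gene called lower, at 1.18 ± 0.381 CPM in WT and 0.566 ± 0.201 in C185G. Its call is lost without WT replicate 2 or 4 or C185G replicate 3 or 4 (limma adjusted p 0.0526 to 0.0933). Against C185Gneo, 3 of the 9 were called higher, Pam, Pcsk5 and Pcsk6, and 2 lower, Scg5 and the carboxypeptidase gene Cpd, with a median of 0.44. Cpd was 0.18 lower on the log2 scale, at 108 ± 7.45 CPM against 122 ± 2.25, and was not called in C185G against WT.

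Of the other peptides, receptors and clearance genes, 9 of 11 were measured. Iapp and Calcr, the calcitonin receptor gene, were not. In C185G against WT, 3 were called higher and 3 lower (median 0.36). Mme encodes neprilysin, a membrane peptidase that degrades adrenomedullin, CGRP and many other peptides. Its level was 431, 457, 394 and 327 CPM in WT, 588, 503, 444 and 448 in C185Gneo and 97.6, 64.9, 88.3 and 50.2 in C185G. All C185G libraries were far below the controls, and Mme fell by 2.46 against WT (SE 0.19, limma adjusted p = 1.04e-06) and fell by 2.76 against C185Gneo (limma adjusted p = 3.59e-07). Ide, the insulin-degrading enzyme, rose from 77 ± 4.64 to 192 ± 33.1 CPM (log2 1.31, SE 0.11, limma adjusted p = 4.86e-07).

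The endothelin-converting enzymes moved in opposite directions. Ece2 rose from 2.09 ± 0.217 CPM in WT to 3.68 ± 0.411 in C185G (log2 0.80), and Ece1 fell from 309 ± 23.4 to 253 ± 21.9 CPM (log2 -0.29). Crcp, which encodes a component once described with CGRP receptors and also a subunit of RNA polymerase III, rose from 13.3 ± 0.957 to 16.3 ± 1.36 CPM. Gpr182, a receptor of endothelium once proposed to bind adrenomedullin, fell from 2.15 ± 0.473 to 1.14 ± 0.25 CPM. Its call against C185Gneo (log2 -0.62) is lost without C185Gneo replicate 2, 3 or 4 or C185G replicate 1 or 2 (limma adjusted p 0.0556 to 0.0837). Against C185Gneo, 5 of the 9 were called higher and 3 lower, with a median of 0.70.

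The list of other receptors studied with RAMPs or related to those that are had 6 of 13 genes measured. The largest difference was in Vipr2, which encodes VPAC2, a receptor for vasoactive intestinal peptide that couples to the stimulatory G protein. Vipr2 was at 1.83, 1.64, 2.79 and 2.34 CPM in WT, at 1.75, 2.06, 2.02 and 2.15 in C185Gneo, and at 23.7, 21, 31.6 and 28.4 in C185G. It rose by 3.60 on the log2 scale against WT (SE 0.18, limma adjusted p = 3.01e-09) and by 3.68 against C185Gneo (limma adjusted p = 2.19e-09). It was the 1 gene of the 6 called higher in either comparison.

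In C185G against WT 2 of these receptors were called lower, and the median of the 6 was -0.45. Pth1r, the parathyroid hormone receptor gene, was at 1.81 ± 0.306 CPM in WT and 1.1 ± 0.269 in C185G. Its call is lost without WT replicate 4 or C185G replicate 3 (limma adjusted p 0.0521 and 0.0611). Adcyap1r1, the PACAP receptor gene, was at 1.16 ± 0.35 CPM in WT and 2.07 ± 0.444 in C185Gneo, with 0.7 ± 0.153 in C185G. Its call against WT is lost without WT replicate 3 or 4 or C185G replicate 1, 2 or 3 (limma adjusted p 0.0516 to 0.108). Against C185Gneo 3 were called lower (median -0.67), including Vipr1, at 4.14 ± 1.38 CPM in C185Gneo and 2.35 ± 0.683 in C185G. The Vipr1 call is lost without C185Gneo replicate 3 or 4 or C185G replicate 2 or 3 (limma adjusted p 0.0525 to 0.102).

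Cyclic AMP signalling, the main output of these receptors, had 38 of 39 listed genes measured. In C185G against WT 7 were called higher, 12 lower and the median was -0.12. Against C185Gneo 7 were higher and 14 lower, with a median of -0.01. Prkar1b, a regulatory subunit of protein kinase A, rose from 13.4 ± 4.08 to 32.4 ± 4.44 CPM (log2 1.31, SE 0.19, limma adjusted p = 6.37e-05). The regulatory subunit gene Prkar2a rose by 0.44 and the CREB relative Atf1 by 0.39. Pde8a, a phosphodiesterase gene, rose from 28.4 ± 0.477 to 47 ± 5.01 CPM, while Pde4d, another that breaks down cyclic AMP, fell from 83.2 ± 5.07 to 45.4 ± 3.1 CPM. Grk3, a receptor kinase that desensitises G protein-coupled receptors, fell from 311 ± 13 to 194 ± 17 CPM.

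Adcy6, an adenylyl cyclase gene, fell from 116 ± 4.95 to 74.3 ± 5.84 CPM (log2 -0.65). The genes named next (Adcy7, Gnas, Prkaca, Adcy3, Prkacb and Prkar1a) were picked after their values were seen and do not stand for the chain as a whole. Of the 8 cyclase genes measured, limma called 3 lower and 0 higher in C185G against WT (4 and 1 at an unadjusted p under 0.05, 3 and 0 with voom weights), and 3 lower and 1 higher, Adcy3, against C185Gneo. Adcy7, another cyclase, fell from 290 ± 37.5 to 87.9 ± 20.5 CPM (log2 -1.74, SE 0.16, limma adjusted p = 2.28e-06). Gnas, the stimulatory G protein alpha subunit, fell from 117 ± 12.5 to 68 ± 11.8 CPM (log2 -0.80, SE 0.12, limma adjusted p = 8.86e-05). Prkaca, a catalytic subunit of protein kinase A, fell from 109 ± 5.34 to 78.1 ± 9.84 CPM (log2 -0.48, limma adjusted p = 0.000179). Prkacb, the other catalytic subunit measured, was not called (64.9 ± 4.27 and 62.2 ± 2.63 CPM, limma adjusted p = 0.485), nor was the regulatory subunit gene Prkar1a (limma adjusted p = 0.084). Adcy6, Adcy7, Gnas and Prkaca were also lower in C185G than in C185Gneo, with log2 differences of -0.67, -1.97, -0.60 and -0.58.

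Genes regarded as targets of ATF4, the transcription factor of the integrated stress response, were listed because Adm2 has been described as responsive to it. Of 31 measured, 20 (64.5%) were called higher and 3 (9.68%) lower in C185G against WT, with a median of 0.81. Against C185Gneo the counts were 22 and 2, with a median of 0.87. Asns, the asparagine synthetase gene, rose from 32 ± 2.81 to 87.8 ± 6.73 CPM (log2 1.45, limma adjusted p = 1.15e-08). Slc7a3, a cationic amino acid transporter gene, rose from 3.94 ± 0.429 to 15.9 ± 1.32 CPM (log2 2.01, limma adjusted p = 4.35e-08). The tRNA synthetase genes Aars (log2 0.96) and Nars (log2 0.85) rose as well. Trib3, a pseudokinase gene picked after its values were seen, rose from 26.1 ± 3.07 to 71.1 ± 17.5 CPM.

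The 3 genes of that list called lower were Atf3, Cth and Cebpb. Atf3, a transcription factor induced by many stresses, fell from 1668 ± 153 to 1017 ± 77.9 CPM, and Cth, of cysteine synthesis, from 52.8 ± 5.03 to 36.1 ± 7.75 CPM. Cebpb, another transcription factor gene, was at 103 ± 5.29 and 78.5 ± 14 CPM. The Cebpb call is lost without WT replicate 3 or 4 or C185G replicate 1, 2 or 4 (limma adjusted p 0.056 to 0.082), and Cebpb was not called against C185Gneo. Because the list was chosen with earlier results of these samples known, its count is not independent evidence of a direction.

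Targets of hypoxia-inducible factors, listed because Adm is one, were called in both directions. Of 22 measured, 7 were higher and 10 lower in C185G against WT (median -0.10), and 8 and 11 against C185Gneo (median -0.13). Ndrg1, a gene induced by hypoxia and other stresses, rose from 66 ± 9.14 to 250 ± 19.6 CPM (log2 1.93, limma adjusted p = 2.32e-07). Ankrd37 fell from 12.1 ± 1.56 to 3.81 ± 0.661 CPM, Pfkfb4, of glycolytic control, from 162 ± 12.6 to 83.8 ± 7.01 CPM, and Egln1, an oxygen sensor gene, from 98.1 ± 6.76 to 58.8 ± 3.26 CPM. Vegfa, the vascular growth factor gene, fell from 471 ± 57.2 to 295 ± 14.7 CPM and was picked after its values were seen.

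**Figure D4:**
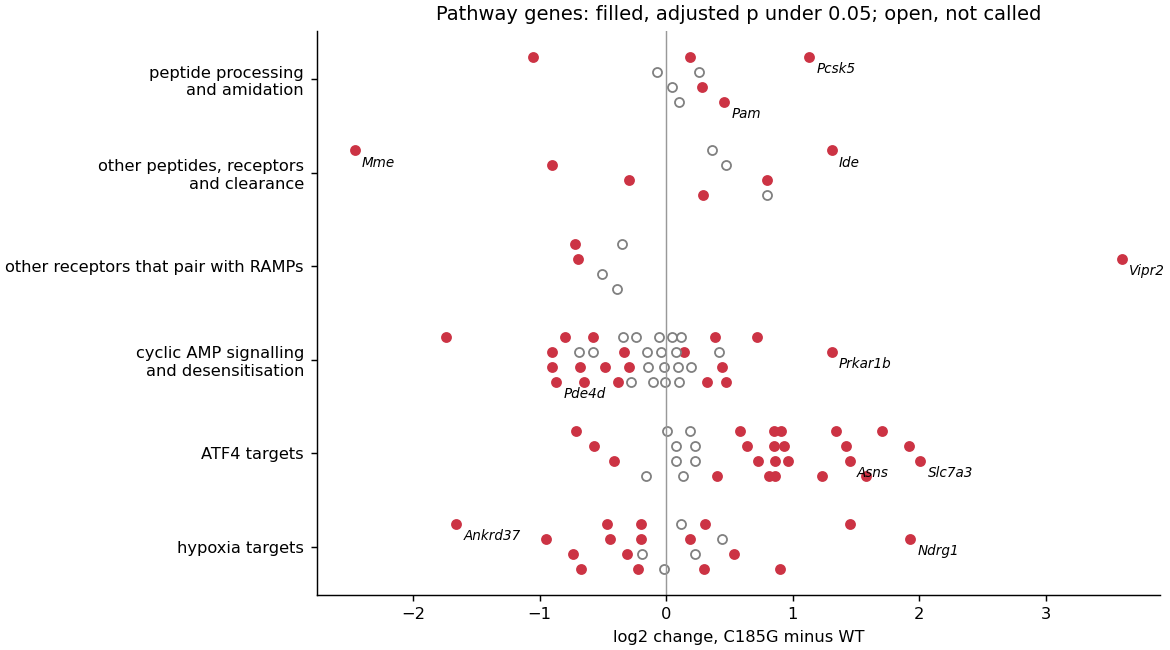
Log2 difference of C185G minus WT for each measured gene of the 6 pathway lists, 1 row of points per list, spread vertically for legibility. Filled points passed an adjusted p under 0.05 and open points did not. Vipr2 stands at 3.60 and Mme at -2.46, and most ATF4 targets lie to the right of 0, with a median of 0.81.

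Between the control genotypes, 1 of the 115 pathway genes was called higher in C185Gneo than in WT and 0 were called lower by limma. At an unadjusted p under 0.05 the counts were 7 and 7, and limma with voom weights called 1 and 0. The gene was Pgk1, of glycolysis, at 76.1 ± 2.55 CPM in WT and 341 ± 59.5 in C185Gneo, with 143 ± 8.38 in C185G. It was 2.15 higher on the log2 scale in C185Gneo than in WT (limma adjusted p = 3.41e-08). The cause of this difference was not tested. Pgk1 is on the hypoxia list, where it counts as higher in C185G against WT (log2 0.90) and lower against C185Gneo (log2 -1.24).

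For each of the 7 genes, up to 3 genes with the most similar profile over the 12 libraries were sought by the root mean square distance between log2 values, each centred on its WT mean. The neighbours of Adm2 were Uchl1 (0.51), Gsta1 (0.53) and Hspa1b (0.54). Uchl1, a neuronal deubiquitinase, was at 5.84 ± 0.445 CPM in WT and 104 ± 7.26 in C185G. Gsta1 and Hspa1b have near-identical copies, which makes their levels uncertain. The neighbours of Calca were the mitosis genes Top2a (0.23) and Kif11 (0.23), followed by Capn6 (0.24). Top2a was at 9.43 ± 0.487 CPM in WT and 32.6 ± 5.1 in C185G.

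The nearest profiles to Calcrl were Cdh5 (0.26), the endothelial cadherin gene, Cd93 (0.27), a gene also known from endothelium, and Gnaz (0.29). Cdh5 is on the endothelial marker list and was at 9.46 ± 2.17 CPM in WT and 10.8 ± 2.97 in C185Gneo, with 5.11 ± 0.823 in C185G. Those of Ramp1 were Tmem110 (0.10), Eps8 (0.11) and the homeobox gene Irx2 (0.11). Irx2 was at 270 ± 27.8 CPM in WT and 259 ± 30.7 in C185Gneo, with 128 ± 22.9 in C185G. For Adm they were Fn1 (0.16), Tbx2 (0.17) and Lamb1 (0.18), and for Ramp3 Hpx (0.20), C3 (0.22) and Fam118a (0.22). Those of Ramp2 included Slc38a1 (0.22) and Adhfe1 (0.23). Fn1 and Lamb1 encode matrix proteins, and C3 a complement component. Genes with low counts have noisier profiles, so distances are not comparable between members.

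Other cell type markers were read for the same libraries. Mesenchymal and smooth muscle markers (14 of 14 measured) summed to 604 to 984 CPM in WT and 236 to 651 in C185Gneo, with 718 to 970 in C185G. Mesothelial markers (5 of 5) summed to 351 to 496 CPM in WT and 70.9 to 600 in C185Gneo, with 555 to 731 in C185G, and macrophage markers (6 of 9) to 64.9 to 90.7, 57.8 to 68.8 and 63.2 to 84.7. Adm and Ramp3, also made by stromal cells, had their highest means in C185G. So did the mesenchymal sum, which overlapped WT, and the mesothelial sum, which did not. Single markers were mixed against WT. Of the 14 mesenchymal markers, 1 was called higher, Dcn, and 2 lower, Cspg4 and Myh11. The fit called 0 of the 5 mesothelial markers, and Upk3b and Lrrn4 had lower means in C185G. Against C185Gneo, 8 of the 14 and 3 of the 5 were called higher and 0 lower, beside the shares of all genes given above. The part of these cell types in the levels of Adm and Ramp3 was not tested. Alveolar type 1 markers (8 of 8) summed to 1940 to 2452 CPM in WT and 1910 to 2288 in C185Gneo, with 1931 to 2458 in C185G. Airway markers (6 of 8) summed to 5601 to 7673 CPM in WT and 5788 to 7272 in C185Gneo, with 4820 to 5528 in C185G.

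**Figure D5:**
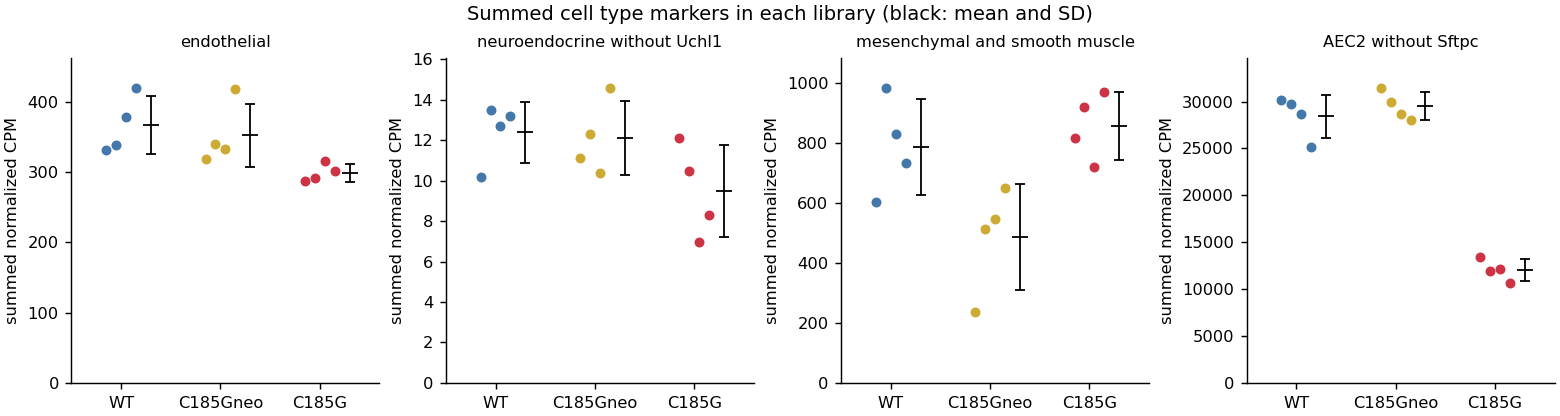
Summed normalized CPM of 4 marker lists in each library, by genotype, with linear y axes from 0. Points are libraries and black marks the mean and SD of 4. Endothelial sums in C185G, 287 to 316, lie below all control sums, neuroendocrine sums without Uchl1 overlap, and AEC2 sums without Sftpc in C185G, 10659 to 13445, lie below all control sums.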

How the data were processed

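RNA of 12 libraries (4 per genotype, grouped by the genotype field) was analysed, with 16080 genes each. STAR, limma and the build mm10 are named, without versions, in the submitters' processing notes. Which counter, annotation and strand setting were used is not given in the sources used here. The authors deposited log2 values, which by their spacing are the log2 of a whole count plus 0.5, scaled by 1 factor per library. 100% of values gave whole counts within 1e-06, and scaled totals differed by at most 1.084 times. They were 0.9578 to 0.9853 of the mean in the C185G libraries and 1.0026 to 1.0386 in the control libraries. Normalized CPM are these scaled counts over the mean scaled total. Counting error limits genes with few counts, and the added 0.5 understates their change.

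Symbols came from GENCODE mouse release 21 (16017 named, 63 without a symbol). One fit in limma 3.58.1 (R 4.3.3; lmFit, eBayes with trend and robust) held all 12 libraries, with no covariates and every gene kept. The method was tested on simulated counts, with known changes in a small set of genes and the same spread for every gene. Far more genes were called in these data, so that run does not give the error rate here. Figures used matplotlib 3.10.9.

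The members and lists were chosen with earlier results of these data known. By rule, up to 3 called genes per list, comparison and direction with the smallest p were named, and the 3 nearest profiles of each member among named genes of at least 5 CPM, without predicted genes and pseudogenes. Some genes that the rule or the lists hold are not reported here. Other called genes of a list are given as counts, and Adcy3, Adcy7, Gnas, Prkaca, Prkacb, Prkar1a, Trib3, Vegfa and Calcb were added after their values were seen. Libraries of a group differed by more than sampling noise, so none was merged. Alternatives tried were no trend, other scalings (quantile, library totals, median of ratios), only the 8 libraries compared, a minimum mean of 5 CPM, library quality weights, voom weights, a pseudocount of 2 counts, the replicate block, the longest transcript as length, and each library left out.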

Additional observations from a re-analysis of the deposited data

Results flagged for a closer look

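A library far from the other 3 of its group was sought in 153 groups of 4 libraries. These covered the 7 family genes and the other named pathway genes except Adcy3, Prkacb and Prkar1a. For these exceptions, calls were also not followed singly under the alternatives below. The 95% limit of Dixon's ratio was met by 4 groups. Chance alone gives about 1 in 20. Prkar1b was at 19.4 CPM in WT replicate 1, with the other WT libraries at 10.6 to 11.8. Cpd was at 118 CPM in C185Gneo replicate 2, with the others at 122 to 123. Adcy7 was at 118 CPM in C185G replicate 1, with the others at 73.2 to 80.7. Vegfa was at 364 CPM in C185Gneo replicate 1, with the others at 463 to 471. None of the 7 family genes met the limit.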

How the results depend on the processing

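The log2 differences of the 7 family genes in the C185G comparisons kept their direction under all alternatives run, except Ramp2 against WT (15 of 21). Between the control genotypes, Adm2 and Calcrl changed sign in 1 alternative each. Adm2 against WT ran from 3.69 to 4.09, Calca from 1.70 to 1.83 and Ramp1 from -1.25 to -1.10. Library totals as the scaling moved the median of all genes by 0.08 in C185G against WT. Counts in the short lists moved with single genes near the threshold, and the cause was not tested. With quantile normalization, processing genes called lower against WT numbered 0 and receptors called lower 1. With library totals, processing genes against C185Gneo numbered 5 higher and 1 lower, receptors called lower against WT 1, and the Ece1 and Cpd calls against C185Gneo were lost (limma adjusted p = 0.0501 and 0.0698). A minimum mean of 5 CPM, which tests fewer genes, gave 0 processing genes lower against WT and 1 against C185Gneo, and 0 receptors lower in both. With only the 8 libraries compared, 5 peptide and clearance genes were higher against WT. With quality weights, receptors lower against WT numbered 1, and in C185Gneo against WT 2 pathway genes were higher, 1 of them of the cyclic AMP list. Leaving out 1 library gave, against WT, 2 to 5 processing genes higher and 0 to 1 lower, 3 to 5 peptide and clearance genes higher (5 without C185Gneo replicate 1), and 0 to 3 receptors lower. Without C185Gneo replicate 4, Calcb was called higher against that group (log2 1.11, limma adjusted p = 0.0184). For Adcyap1r1 against WT the call was also lost with quantile normalization and library totals, for Scg5 with quantile normalization, for Pcsk6 without the trend, for Pth1r with quality weights and for Cebpb with library totals.

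Replicate numbers were not used as pairs: deviations of same-numbered libraries correlated at -0.30 to 0.25, and most libraries did not match their own number best. With 4 libraries per group, these values cannot exclude that same-numbered libraries were prepared together. With the replicate number as a block, 42 pathway genes were higher and 34 lower against WT (31 lower without it), and Adm2 differed by 3.86. Gpr182 against C185Gneo was then not called (limma adjusted p = 0.0515), and Cebpb was (limma adjusted p = 0.0408). For Adm against WT, the block gave an SE of 0.15 in place of 0.2.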
